A study of Mus musculus with 24 samples.

Results

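The genes described here are 46 mouse genes of the interferon response and of antigen presentation on class I molecules, taken by gene symbol from a list of interferon receptors, STAT and IRF factors, RNA and DNA sensors, interferon-induced effectors and class I presentation genes. Of these, 44 were found among the 19780 genes listed for control cells, 19778 of them with a p. In paused cells 42 were found among the 19979 genes tested. The 42 genes are the same in both, and 19134 genes in all were tested in both. Isg15 and Ifit3 were found in neither condition, and Usp18 and Ifit1 were found in control cells only.

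Poly(A) RNA was sequenced from E14 cells, a line of mouse embryonic stem cells, grown in serum with leukaemia inhibitory factor on gelatin. The cells were wild type (WT) or came from 1 of 2 Smad2 knockout lines, Smad2_KO1 and Smad2_KO2, and each of these was kept in control medium (Ctrl) or was paused with the mTOR inhibitor INK128 at 200 nM for 12 h, which gives 24 libraries in 6 groups of 4. The labels do not say which lesion each knockout line carries, whether a line is a single clone, or whether the 4 replicates of a group were separate cultures. The data analysed are 2 results tables of the authors, for control and for paused cells, with a mean normalized count over libraries, a log2 change, its standard error and a DESeq2 p per gene, and with no value for a single library. The spread of the libraries therefore enters only through the standard errors, the depth of each library is unknown, and the knockout lines cannot be told apart.

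Interferons are secreted signals that induce antiviral genes. Type I interferons bind the receptor of Ifnar1 and Ifnar2, and transcription factors that include Stat2 and Irf9 then act on interferon-stimulated response elements in promoters, while interferon gamma binds the receptor of Ifngr1 and Ifngr2 and acts through gamma-activated sites and, further on, through Irf1. Class I molecules carry peptides to the cell surface: the immunoproteasome cuts proteins, a transporter brings the peptides into the endoplasmic reticulum, and a heavy chain binds them there together with beta-2-microglobulin. Embryonic stem cells are known for a weak interferon response and for little class I on their surface. Smad2 is the nuclear messenger of the growth factors Nodal and activin, and Smad proteins bind short DNA elements known as SMAD boxes.

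Promoter sequences are shown for 5 of the members that were called in the same direction in control and paused cells and hold an interferon or STAT element. The 5 are a selection. Ifnar1, Ifit2, Adar and Psmb8 also meet these criteria, each with a gamma-activated site, and are not shown. They come from RefSeq on GRCm38.p6, which had promoter windows for 37 of the 46 members, each with 250 bases before the start of transcription and 50 bases after it, so that base 251 of a window is taken as the start. Motifs were searched on both strands as GAAANNGAAA (interferon-stimulated response element), TTCNNNGAA (gamma-activated site) and CAGAC (SMAD box). Capitals mark the match in the windows below, which lie at chr11:53769764-53770063 on the plus strand for Irf1, chr2:122147437-122147736 on the plus strand for B2m, chr8:71537423-71537722 on the minus strand for Bst2, chr2:62646206-62646505 on the minus strand for Ifih1 and chr10:128270248-128270547 on the plus strand for Stat2. The first 4 genes were lower and Stat2 was higher after loss of Smad2. The Irf1 capitals are a gamma-activated site, and the capitals of the others are interferon-stimulated response elements. In Stat2 the element is written on the strand of the gene and so reads as its reverse complement.
Irf1: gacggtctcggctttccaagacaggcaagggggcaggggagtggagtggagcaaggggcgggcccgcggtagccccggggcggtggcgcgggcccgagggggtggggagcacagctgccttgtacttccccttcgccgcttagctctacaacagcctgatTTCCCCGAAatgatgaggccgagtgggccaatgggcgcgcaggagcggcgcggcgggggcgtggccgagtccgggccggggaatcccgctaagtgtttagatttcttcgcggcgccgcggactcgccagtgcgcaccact
B2m: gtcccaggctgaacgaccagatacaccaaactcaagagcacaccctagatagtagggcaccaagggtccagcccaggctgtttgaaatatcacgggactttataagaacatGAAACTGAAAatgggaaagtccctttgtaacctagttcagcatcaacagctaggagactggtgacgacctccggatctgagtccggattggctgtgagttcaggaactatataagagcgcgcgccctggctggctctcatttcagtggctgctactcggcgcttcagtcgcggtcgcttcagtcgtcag
Bst2: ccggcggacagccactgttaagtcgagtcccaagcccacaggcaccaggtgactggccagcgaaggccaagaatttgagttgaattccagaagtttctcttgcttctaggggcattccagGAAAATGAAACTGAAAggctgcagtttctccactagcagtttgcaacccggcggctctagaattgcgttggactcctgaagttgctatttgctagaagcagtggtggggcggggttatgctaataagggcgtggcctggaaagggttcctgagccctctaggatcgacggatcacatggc
Ifih1: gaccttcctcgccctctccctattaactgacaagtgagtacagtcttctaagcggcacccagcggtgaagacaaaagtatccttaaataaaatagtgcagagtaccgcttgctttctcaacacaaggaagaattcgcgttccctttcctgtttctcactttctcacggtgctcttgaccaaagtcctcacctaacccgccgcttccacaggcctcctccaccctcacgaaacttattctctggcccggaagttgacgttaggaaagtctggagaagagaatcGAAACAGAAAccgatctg
Stat2: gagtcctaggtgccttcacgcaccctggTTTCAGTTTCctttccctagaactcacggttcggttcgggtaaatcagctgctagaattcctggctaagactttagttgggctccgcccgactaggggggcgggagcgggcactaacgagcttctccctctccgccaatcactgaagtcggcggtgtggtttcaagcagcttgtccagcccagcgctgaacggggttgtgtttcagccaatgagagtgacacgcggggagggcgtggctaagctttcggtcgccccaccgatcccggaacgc

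The match of Irf1 began at base 161 of its window, upstream of the start, and that of B2m at base 112. Bst2 had overlapping matches to the response element that began at bases 121 and 127, and a gamma-activated site at base 115 that overlaps the first of them. The match of Ifih1 began at base 283, downstream of the start. Psmb8, the member with the largest change, had a gamma-activated site at base 154 of its window, which GENCODE M21 places in an exon of a longer transcript of the gene. An interferon-stimulated response element was found in 13 of the 37 members (35.1%), against 3.99% of all 27025 genes with RefSeq windows. A gamma-activated site was found in 12 members (32.4%), against 9.55% of all genes, and a SMAD box in 16 members (43.2%), against 53.2% of all genes. Of the 13 members with windows that were lower in both conditions, 3 held the response element (23.1%), 6 the gamma-activated site and 4 a SMAD box. Of the 3 that were higher in both, the counts were 1, 0 and 1. Of the remaining 21 members with windows, 9 held the response element (42.9%), 6 the gamma-activated site and 11 a SMAD box. The response element was thus not more frequent among the members that fell in both. These are matches of letters in a fixed window, and binding of a factor was not measured.

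The Smad2 transcript itself was lower in both comparisons, by the authors' deposited tables, with a log2 change of -0.35 (SE 0.07) in control and -0.63 (SE 0.06) in paused cells. It remained at 78.6% and 64.6% of the wild-type level, so the transcript was reduced and not lost, and Smad2 protein was not measured in these data. The tables do not name the numerator, so the direction of every change below rests on reading Smad2 as lower in the knockout. A change is called here when its Benjamini-Hochberg adjusted p from the authors' DESeq2 test is under 0.05.

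The largest falls were those of Psmb8, a class I pathway gene, and of the RNA sensor gene Ifih1. In Smad2 knockout cells the immunoproteasome subunit Psmb8 was at 7.17% of the wild-type level in control cells and at 3.5% in paused cells, by the authors' deposited tables. Ifih1, at low counts, was at 18.9% and 10.2%. The peptide transporter subunit Tap2 was at 27.2% and 25.4%, beta-2-microglobulin (B2m) at 45.1% and 40.2%, and the immunoproteasome subunit Psmb10 at 48.1% and 40.8%. The interferon gamma receptor chains, Irf1, Bst2, Parp9 and Dtx3l also fell in both conditions, while the sensor gene Mb21d1 rose in both, and Stat2, Trim25 and H2-D1 rose by 1.27-fold or less.

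In control cells 29 of 44 members were called, where 41.4% of all genes with a p were called. Of the members 19 were lower, against 21.9% of all genes, and 10 were higher, against 19.5%. In paused cells 24 of 42 members were called, where the share of all genes was 42.6%. There 18 members were lower, against 22% of all genes, and 6 were higher, against 20.5%. The called share of members was thus 65.9% in control and 57.1% in paused cells. Lower members made up 43.2% and 42.9%, and higher members 22.7% and 14.3%. The median log2 change of the members was -0.13 in control and -0.19 in paused cells, and that of all genes was 0.001 and -0.002.

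Changes of at least 2-fold were fewer. In control cells Psmb8, Ifih1, Tap2, Ifit1, B2m and Psmb10 were at least 2-fold lower, 6 of 44 members, against 2.52% of all genes. Irf7 was the 1 member at least 2-fold higher, against 4.46% of all genes. In paused cells the 7 of 42 members at least 2-fold lower were Psmb8, Ifih1, Tap2, B2m, Psmb10, Bst2 and Tapbp, against 2.21% of all genes. The sensor adaptor Tmem173 and Ifi27 were the 2 members at least 2-fold higher there, against 4.89% of all genes. Both conditions therefore share 5 members in the group of large falls, 4 of them in the class I pathway and the last the RNA sensor Ifih1, where 1.66% of all genes were at least 2-fold lower in both.

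Of the 42 members tested in both conditions, 15 were lower in both, against 16% of all 19134 genes tested in both, and 4 were higher in both, against 14.3%. None was called in opposite directions, against 0.162% of all genes. Those lower in both were Ifnar1, Ifngr1, Ifngr2, Irf1, Ifih1, Ifit2, Bst2, Adar, Parp9, Dtx3l, B2m, Tap2, Tapbp, Psmb8 and Psmb10. By role they were 3 of 4 receptors, 1 of 6 factors, 1 of 6 sensors, 5 of 16 effectors and 5 of 10 class I genes. Those higher in both were Stat2, Mb21d1, Trim25 and H2-D1. Ifi35, H2-K1 and Psmb9 were called lower in control cells alone, and Irf7, Mavs, Ifitm2, Xaf1, Eif2ak2 and Parp14 higher in control cells alone. Irf9, Ifitm3 and Samhd1 were called lower in paused cells alone, and Tmem173 and Ifi27 higher there alone. Per the labels both conditions use the same 2 knockout lines, so a call in both is not an independent repeat. A call in 1 condition alone is not a difference between conditions, which was tested for each gene and is given further on. The remaining 9 members, Ifnar2, Irf2, Irf3, Ddx58, Zbp1, Ifitm1, Rsad2, Tap1 and Nlrc5, were called in neither.

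The members differ widely in abundance, as the plot of mean level per kb shows. Levels are the deposited mean normalized counts divided by the length of the longest GENCODE M21 transcript, and they average wild-type and knockout libraries, so the order of members whose levels differ between the genotypes depends on that mix. In control cells the small membrane proteins that block virus entry, Ifitm2, Ifitm3 and Ifitm1, stood at 11575, 9260 and 8976 counts per kb. Trim25, a ubiquitin ligase that helps to activate RNA sensing, followed at 1917 counts per kb. The order of the Ifitm genes is uncertain, since 48.5% of the 50-base windows of Ifitm2, 10% of those of Ifitm3 and 6.36% of those of Ifitm1 also occur in another gene. At the other end Ifih1 stood at 1.22 counts per kb, Ifit1 at 2.07, Usp18 at 2.32 and Irf7 at 4.07. In the class I pathway Psmb10, Tapbp, H2-K1, H2-D1 and B2m lay between 350 and 531 counts per kb, while Psmb8 (36.9), Psmb9 (21), Tap2 (19.3) and Nlrc5 (5.43) lay lower. The summed mean count of the 10 class I members was 4328 in control and 4086 in paused cells, against 44251 and 37990 for the effectors.

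**Figure D1:**
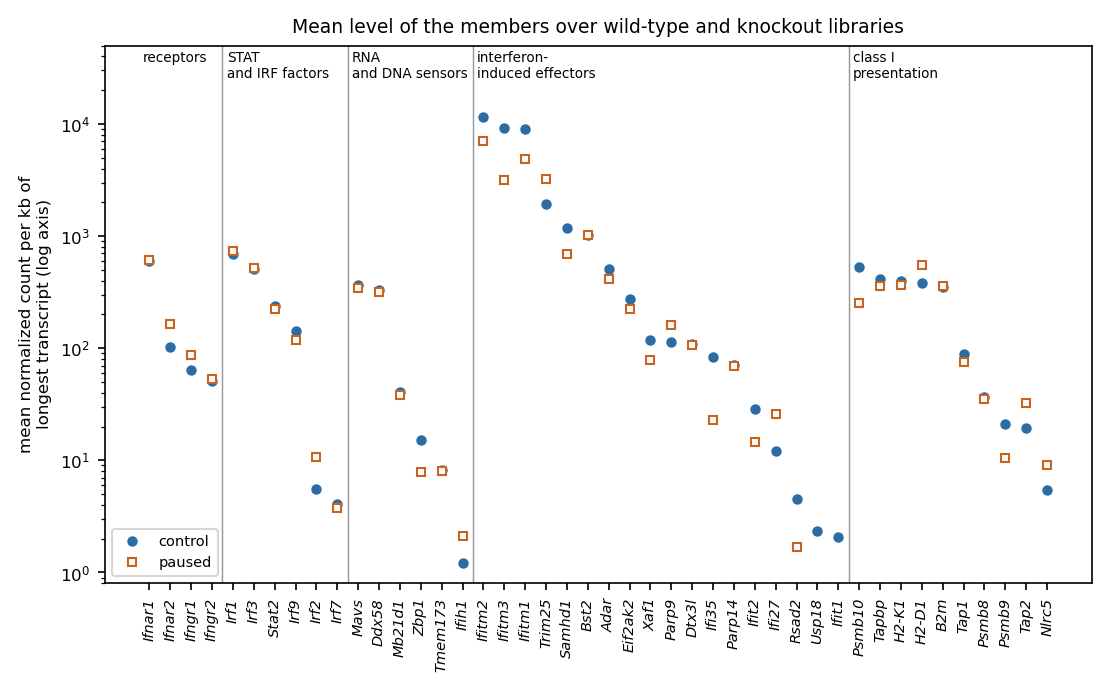
Mean normalized count per kb of the longest transcript for each member (log axis), averaged over wild-type and knockout libraries, in the control and the paused table. Members are grouped by role and ordered by their control level, from 11575 for Ifitm2 to 1.22 for Ifih1, and the tables were normalized separately.

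Psmb8 lies at chr17:34197721-34201454 on GRCm38 and codes for an immunoproteasome subunit that takes the place of the constitutive subunit Psmb5. Its log2 change in the authors' deposited table was -3.80 (SE 0.43, DESeq2 adjusted p 2.71e-17, mean 70.4 normalized counts) in control cells, a 13.9-fold fall. In paused cells it was -4.84 (SE 0.50, adjusted p 3.19e-20, mean 67.5), a 28.6-fold fall. Only 17 genes of the control table and 9 genes of the paused table had a more negative change. The 95% intervals, -4.64 to -2.97 and -5.82 to -3.85, overlap each other.

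Tap2, at chr17:34203527-34216321, codes for a subunit of the transporter that brings peptides into the endoplasmic reticulum. Its change in the authors' deposited tables was -1.88 (SE 0.24, adjusted p 1.24e-13, mean 66.3) in control and -1.98 (SE 0.27, adjusted p 3.79e-12, mean 111) in paused cells, falls of 3.68-fold and 3.94-fold. Tap1, the partner subunit, did not pass the test in either table, with -0.24 (SE 0.11, adjusted p 0.0722, mean 348) and 0.03 (SE 0.13, adjusted p 0.864, mean 292). The 95% intervals of Tap1, -0.46 to -0.02 and -0.22 to 0.29, do not reach those of Tap2. The subunits of 1 transporter thus differed in their change.

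B2m, at chr2:122147686-122153083, codes for the light chain that every classical class I molecule needs. It fell by 1.15 on the log2 scale (SE 0.26, adjusted p 8.92e-05, mean 301) in control cells by the authors' deposited table and by 1.31 (SE 0.18, adjusted p 8.02e-12, mean 305) in paused cells by the paused table. Psmb10, at chr8:105935735-105938444, codes for another immunoproteasome subunit and fell by 1.05 (SE 0.13, adjusted p 4.44e-15, mean 696) and by 1.29 (SE 0.24, adjusted p 4.89e-07, mean 334). Tapbp, at chr17:33915899-33929292, codes for tapasin, which holds empty class I molecules at the transporter. It fell by 0.68 (SE 0.12, adjusted p 2.07e-07, mean 1202) and by 1.00 (SE 0.17, adjusted p 2.69e-08, mean 1029) in the same tables.

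The heavy chains went different ways. H2-D1, at chr17:35262730-35267499, rose by 0.30 (SE 0.10, adjusted p 0.0113, mean 798) in control and by 0.31 (SE 0.10, adjusted p 0.0046, mean 1162) in paused cells, by the authors' deposited tables. H2-K1, at chr17:33996017-34000347, fell by 0.47 (SE 0.14, adjusted p 0.00217, mean 745) in control cells, and its value in paused cells, -0.24 (SE 0.20, adjusted p 0.33, mean 686), did not pass the test. Of the 50-base windows of H2-D1 14.3% also occur in another gene, most of all H2-Q1, and of those of H2-K1 8.11%, most of all H2-D1, so reads can be shared between heavy chain genes and these values are uncertain. Psmb9, the remaining immunoproteasome subunit, had a change of -0.41 (SE 0.16, adjusted p 0.0312, mean 60.5) in control cells and -0.48 (SE 0.26, adjusted p 0.137, mean 29.9) in paused cells, and its control call was lost with equal summed counts. Nlrc5, which codes for the activator of class I transcription, did not pass the test, with 0.02 (SE 0.24, adjusted p 0.968) and 0.11 (SE 0.22, adjusted p 0.723). The intervals of Nlrc5, -0.45 to 0.48 and -0.32 to 0.54, reach to both sides of 0 at means of 41.2 and 68.9 counts.

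**Figure D2:**
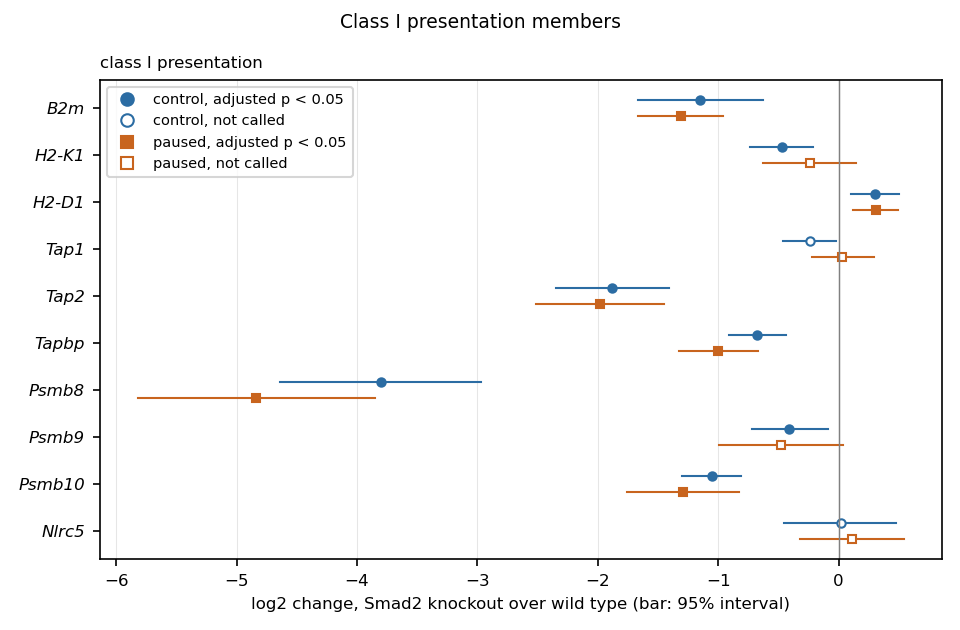
Log2 change of the 10 class I presentation members, Smad2 knockout over wild type, with 95% intervals from the deposited standard errors, in control (circles) and paused cells (squares). Filled symbols mark an adjusted p under 0.05. Psmb8 lies at -3.80 and -4.84, apart from the other members, and H2-D1 alone lies above 0 with filled symbols.

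Psmb9, Tap1, Psmb8 and Tap2 are direct neighbours in the class II region of the major histocompatibility complex on chromosome 17. Psmb9 and Tap1 lie head to head with an overlap of 212 bases, Tap1 ends 495 bases before Psmb8 starts, and Psmb8 ends 2072 bases before Tap2 starts. The order along the chromosome was therefore a change of -0.41, -0.24, -3.80 and -1.88 in control cells, and in paused cells it was -0.48, 0.03, -4.84 and -1.98, with the large falls at the Psmb8 and Tap2 end. B2m and Psmb10 lie on chromosomes 2 and 8 and fell as well. On the opposite strand, exons of Psmb8 overlap Gm20496 over 498 bases, those of Tap2 overlap Gm15821 and Gm20496 over 698 bases in all, and those of Tapbp overlap Gm19412 over 904 bases. The libraries were directional per the labels, but whether the counting used strand is not given in the sources used here.

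Among 12 further genes of the class I pathway outside the 46, 9 were called lower and 0 higher in control cells, and 9 lower and 0 higher in paused cells, by the authors' DESeq2 tests. That is 75% lower in each, against 21.9% and 22% of all genes, while 19.5% and 20.5% of all genes were higher. This list, like the members, was chosen with earlier results of these data known, so its share is not an independent check. The median log2 change of the 12 was -0.69 in control and -0.71 in paused cells. The 9 were in both tables Erap1, Canx, Pdia3, Tapbpl, Psme1, Psme2, H2-T22, H2-M3 and H2-Q4. Erap1, the peptidase that trims peptides to the length class I molecules hold, fell by 1.89 (SE 0.28, adjusted p 3.16e-10) and by 1.65 (SE 0.25, adjusted p 4.49e-10) in the authors' deposited tables. Psme1 and Psme2, which code for the proteasome activator PA28, changed by -0.67 (SE 0.09) and -0.98 (SE 0.10) in control and by -0.73 (SE 0.07) and -1.19 (SE 0.13) in paused cells. H2-Q4, a heavy chain gene with close relatives, changed by -0.95 (SE 0.15) and -0.62 (SE 0.12).

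The constitutive catalytic proteasome subunits, which the immunoproteasome subunits replace, had small changes. Of Psmb5, Psmb6 and Psmb7 only Psmb7 passed the test, with -0.19 (SE 0.06, adjusted p 0.0101) in control and -0.11 (SE 0.04, adjusted p 0.0296) in paused cells, by the authors' deposited tables. Psmb5 stood at -0.25 (SE 0.12, adjusted p 0.0938) and -0.08 (SE 0.06, adjusted p 0.328). Their mean counts, from 3409 to 11249 in control cells, are far above the 70.4 of Psmb8. Of 10 class II presentation genes tested, 1 was lower and 3 higher in control cells, and 2 were lower and 2 higher in paused cells. The lower share was thus 10% (control) and 20% (paused), against 21.9% and 22% of all genes. The higher share was 30% and 20%, against 19.5% and 20.5% of all genes, so the paused shares were near those of all genes. Rfxap, a subunit of a factor that binds class II promoters, was the lower gene in both (-0.23, SE 0.08, and -0.25, SE 0.09), with its partner Rfx5 lower in paused cells (-0.38, SE 0.10). Chosen after their values were seen, the higher genes were Ciita, H2-Eb1 and H2-DMb1 in control and Ciita and H2-Eb1 in paused cells. The class II list had a median change of 0.22 and 0.29.

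**Figure D3:**
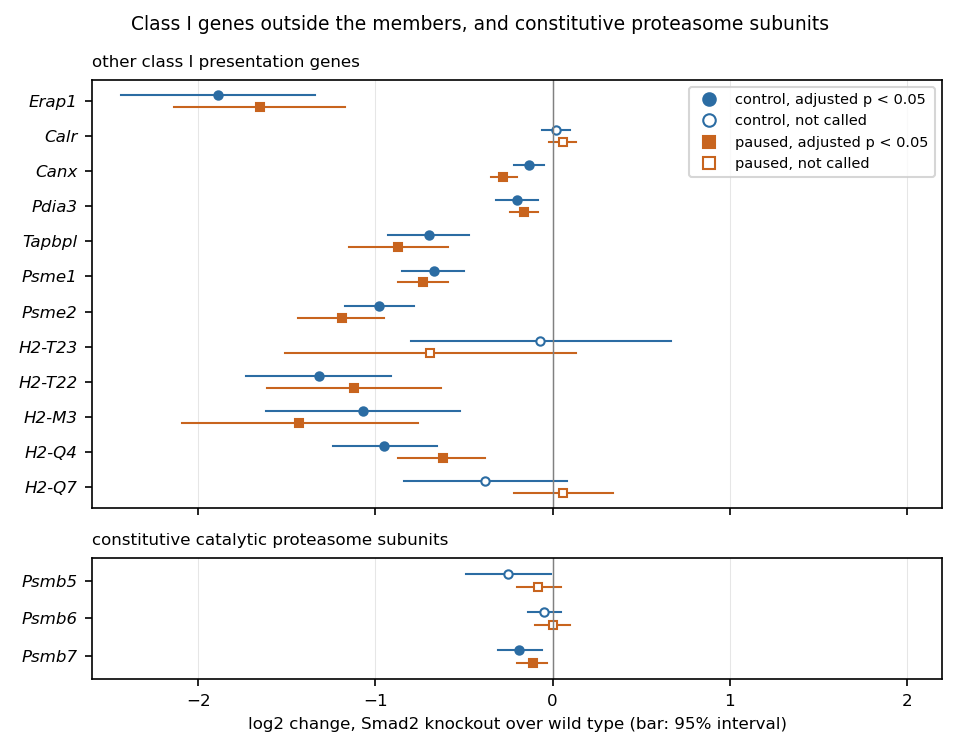
Log2 change, Smad2 knockout over wild type, of 12 class I pathway genes outside the members (upper panel) and of the 3 constitutive catalytic proteasome subunits (lower panel), with 95% intervals in control (circles) and paused cells (squares). Filled symbols mark an adjusted p under 0.05. In the upper panel 9 genes lie below 0 with filled symbols in both conditions, while in the lower panel the values lie between -0.25 and -0.00.

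The receptor chains for interferon gamma both fell. Ifngr1, the chain that binds the ligand, changed by -0.53 (SE 0.16, adjusted p 0.00278, mean 134) in control cells by the authors' deposited table and by -0.58 (SE 0.10, adjusted p 1.68e-07, mean 185) in paused cells by the paused table, to 69.4% and 66.8% of wild type. Ifngr2, the signalling chain, changed by -0.45 (SE 0.09, adjusted p 7.87e-06, mean 189) and by -0.37 (SE 0.13, adjusted p 0.016, mean 198). The type I receptor chains had smaller changes. Ifnar1 changed by -0.13 (SE 0.06, adjusted p 0.0401, mean 2361) and by -0.27 (SE 0.04, adjusted p 1.09e-08, mean 2381), and the control call was lost when both genotypes were scaled to equal summed counts. Ifnar2 stood at 0.04 (SE 0.10, adjusted p 0.808, mean 311) and 0.13 (SE 0.07, adjusted p 0.11, mean 499) and did not pass the test. Per kb, Ifnar1 stood at 604 counts in control cells and the other chains between 50.9 and 102.

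Irf1, the factor that carries the interferon gamma response to class I genes, was the STAT or IRF gene with a clear fall. It changed by -0.89 (SE 0.08, adjusted p 2.65e-27, mean 1487) in control cells by the authors' deposited table and by -0.99 (SE 0.10, adjusted p 1.43e-21, mean 1588) in paused cells by the paused table, to 53.9% and 50.4% of wild type. Irf1 had the highest level per kb of the 6 factors, 696 counts in control cells, with Irf3 next at 508. Irf3, the factor that sensors activate first, stood at -0.06 (SE 0.05, adjusted p 0.353, mean 1031) and -0.01 (SE 0.05, adjusted p 0.912, mean 1062), with intervals of -0.16 to 0.04 and -0.10 to 0.09 that exclude a change of 1.2-fold. Stat2 rose by 0.25 (SE 0.05, adjusted p 1.64e-05, mean 1044) and by 0.16 (SE 0.05, adjusted p 0.00803, mean 987). Its partner Irf9 stood at -0.02 (adjusted p 0.813) and was called in paused cells, where it fell by 0.16 (adjusted p 0.0442), a call that was lost with equal summed counts. Irf7, which amplifies type I interferon production, was near the low end of abundance with means of 13.2 and 12.3 counts. It rose by 1.11 (SE 0.37, adjusted p 0.00972) in control cells, and its paused value of 0.78 (SE 0.38, adjusted p 0.0884) did not pass the test. Irf2 stood at -0.22 (adjusted p 0.711) and -0.71 (adjusted p 0.0544).

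Among the sensors the changes went in opposite directions. Ifih1, which codes for MDA5, a sensor of long double-stranded RNA, changed by -2.40 (SE 0.58, adjusted p 2.19e-04) in control cells by the authors' deposited table and by -3.29 (SE 0.71, adjusted p 2.10e-05) in paused cells by the paused table, to 18.9% and 10.2% of wild type. Its means were 6.66 and 11.7 counts, so these changes rest on few reads, and their 95% intervals are wide (-3.54 to -1.26 and -4.67 to -1.90). Ddx58, which codes for the sensor RIG-I and is far more abundant (means 1268 and 1239), stood at -0.12 (SE 0.09, adjusted p 0.32) and -0.11 (SE 0.08, adjusted p 0.293). The adaptor gene of both RNA sensors, Mavs, rose by 0.16 (SE 0.06, adjusted p 0.0286, mean 1127) in control cells and stood at 0.06 (SE 0.06, adjusted p 0.442, mean 1043) in paused cells.

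The DNA sensor gene went the other way from Ifih1. Mb21d1, which codes for the DNA sensor cGAS, rose by 0.74 (SE 0.12, adjusted p 4.12e-09, mean 165) in control cells by the authors' deposited table and by 0.70 (SE 0.13, adjusted p 1.09e-06, mean 156) in paused cells by the paused table, to 167% and 163% of wild type. Tmem173, which codes for its adaptor STING, stood at 0.80 (SE 0.38, adjusted p 0.0778, mean 18.9) in control cells and rose by 1.37 (SE 0.40, adjusted p 0.00198, mean 18.6) in paused cells. Its interval in control cells, 0.06 to 1.54, includes the paused estimate. Zbp1, a sensor of Z-form nucleic acid, stood at -0.52 (adjusted p 0.0581) and -0.70 (adjusted p 0.0697).

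Of the effectors, Bst2, Parp9, Dtx3l, Ifit2 and Adar fell in both conditions. Bst2, which codes for tetherin, a membrane protein that holds budding virus at the cell, changed by -0.64 (SE 0.11, adjusted p 1.07e-07, mean 815) in control cells by the authors' deposited table and by -1.13 (SE 0.13, adjusted p 1.57e-17, mean 817) in paused cells by the paused table, to 64% and 45.6% of wild type. Parp9 and Dtx3l code for partners in 1 ubiquitin ligase complex. Parp9 changed by -0.85 (SE 0.12, adjusted p 2.08e-10, mean 405) and by -0.91 (SE 0.15, adjusted p 2.00e-08, mean 573). Dtx3l changed by -0.69 (SE 0.11, adjusted p 4.13e-09, mean 584) and by -0.90 (SE 0.13, adjusted p 3.15e-11, mean 568). The genes lie head to head on chromosome 16 with 458 exon bases in common on opposite strands, so without strand some of their reads could not be told apart. Parp14, which lies 54966 bases from Dtx3l, did not share the fall: it rose by 0.27 (SE 0.08, adjusted p 0.00353, mean 529) in control cells and stood at -0.12 (SE 0.13, adjusted p 0.495, mean 515) in paused cells.

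The Ifit genes code for proteins that bind foreign RNA. Ifit2 changed by -0.78 (SE 0.13, adjusted p 4.56e-08, mean 110) in control cells by the authors' deposited table and by -0.56 (SE 0.20, adjusted p 0.0182, mean 56.1) in paused cells by the paused table. Ifit1 changed by -1.88 (SE 0.67, adjusted p 0.0154) in control cells at a mean of 5.49 counts, with an interval from -3.20 to -0.56. Trim25 rose by 0.24 (SE 0.05, adjusted p 4.34e-06, mean 10716) and by 0.34 (SE 0.04, adjusted p 2.88e-17, mean 18078). Adar, which edits double-stranded RNA, changed by -0.11 (SE 0.04, adjusted p 0.0116, mean 3006) and by -0.21 (SE 0.04, adjusted p 4.18e-06, mean 2422), and its control call was lost with equal summed counts. The changes of Trim25 and Adar were small, with levels between 86.4% and 127% of wild type.

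The abundant Ifitm genes had small changes. Ifitm2 rose by 0.25 (SE 0.10, adjusted p 0.0422, mean 7581) in control cells by the authors' deposited table and stood at -0.01 (SE 0.06, adjusted p 0.889, mean 4586) in paused cells by the paused table. Ifitm3 stood at -0.09 (SE 0.05, adjusted p 0.132, mean 6278) and changed by -0.31 (SE 0.09, adjusted p 0.00137, mean 2138). Ifitm1 stood at 0.03 (adjusted p 0.834) and -0.09 (adjusted p 0.476). The other effectors were Ifi35 (-0.38 and -0.58), Xaf1 (0.39 and 0.13), Eif2ak2 (0.22 and -0.03), Samhd1 (-0.03 and -0.13), Ifi27 (0.98 and 1.05), Rsad2 (0.35 and 0.80) and, in control cells only, Usp18 (-0.62). Their calls are as listed above, the paused call of Samhd1 was lost with equal summed counts, and Rsad2 and Usp18 did not pass the test where they were tested.

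**Figure D4:**
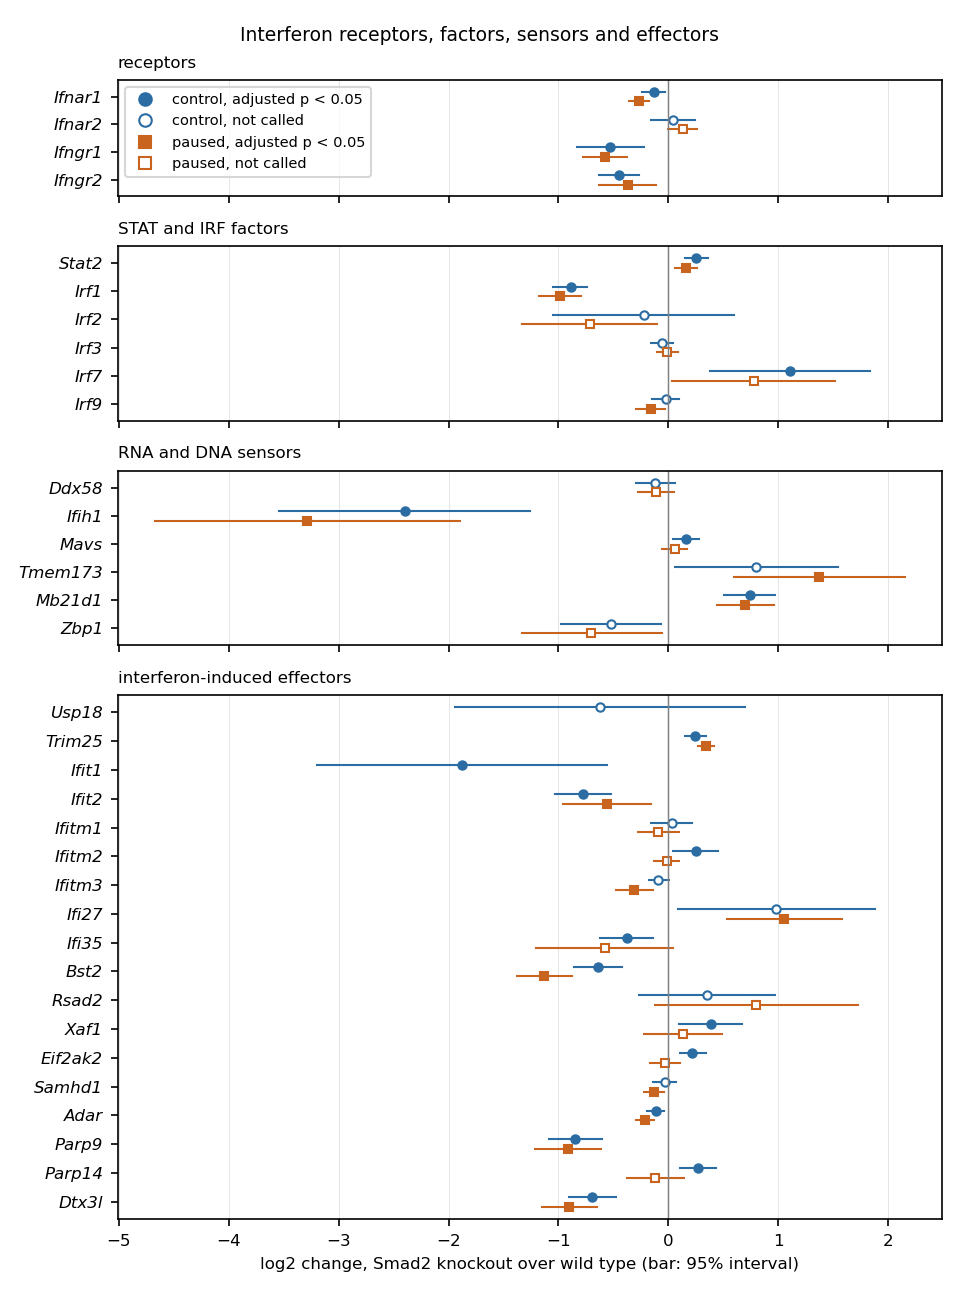
Log2 change, Smad2 knockout over wild type, of the receptor, factor, sensor and effector members, with 95% intervals in control (circles) and paused cells (squares). Filled symbols mark an adjusted p under 0.05, and Usp18 and Ifit1 have a control value only. Ifih1 has the largest falls, at -2.40 and -3.29, with wide intervals, while Irf1, Bst2, Parp9 and Dtx3l lie between -0.64 and -1.13 with narrow ones.

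The change of each member in paused cells was set against that in control cells, to ask whether mTOR inhibition altered the effect of Smad2 loss. By a two-sided normal test of the difference, adjusted after Benjamini and Hochberg across all 19134 genes that both tables hold, 0 of the 42 members differed, where 1.44% of all genes did. At an unadjusted p under 0.05 there were 5 members, Bst2, Eif2ak2, Parp14, Ifitm2 and Ifitm3, against 12.9% of all genes, a share close to that of the members. The difference, paused minus control, was -0.49 for Bst2 (SE 0.17, adjusted p 0.121), -0.25 for Eif2ak2 (SE 0.09, adjusted p 0.158) and -0.39 for Parp14 (SE 0.15, adjusted p 0.209). It was -0.26 for Ifitm2 (adjusted p 0.309) and -0.22 for Ifitm3 (adjusted p 0.291). None of the 5 passed the adjusted test. Of the 42 members 29 had a difference below 0, with a median difference of -0.10, and of all genes 48.7% were below 0, with a median of 0.01.

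For the large falls the intervals of the difference were wide. That of Psmb8 was -1.04 (95% interval -2.33 to 0.26) and that of Ifih1 -0.89 (-2.68 to 0.91). For Tap2 it was -0.10 (-0.80 to 0.60), for B2m -0.16 (-0.79 to 0.46) and for Irf1 -0.10 (-0.35 to 0.15). These bounds leave room for a difference of several fold for Psmb8 and Ifih1, and for a much smaller one for Irf1.

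**Figure D5:**
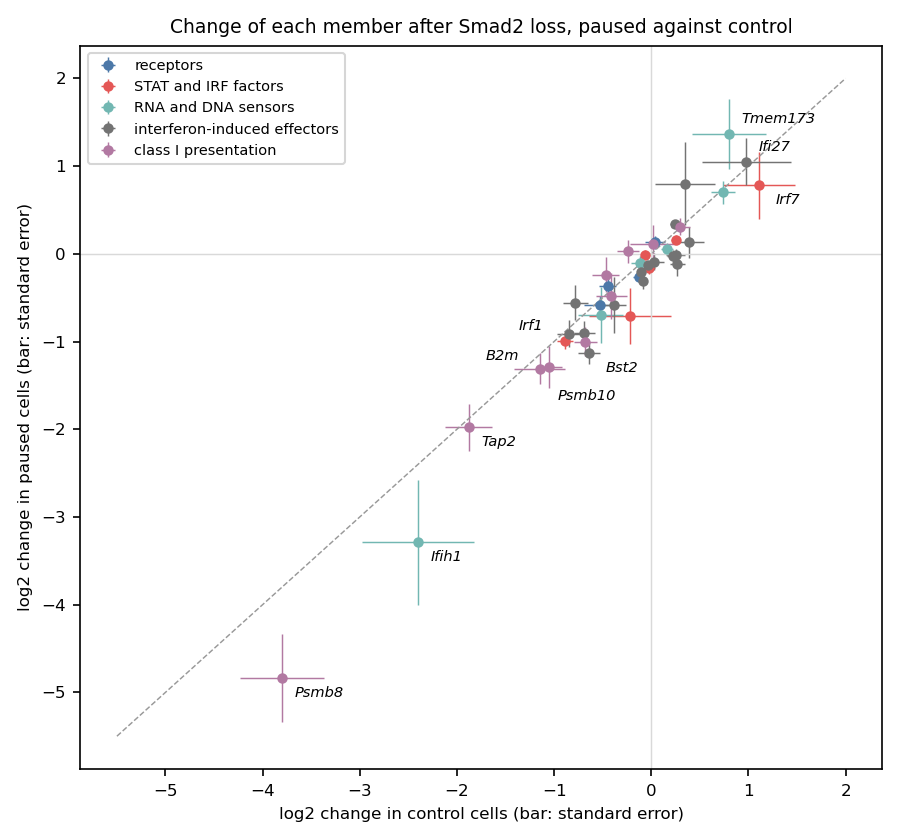
Log2 change after Smad2 loss in paused cells (y axis) against control cells (x axis) for the 42 members in both tables, coloured by role, with standard errors as bars. The dashed line marks equal change. Psmb8 at -3.80 and -4.84, Ifih1 at -2.40 and -3.29 and Tap2 at -1.88 and -1.98 lie farthest from 0, and the sensor adaptor Tmem173 lies at 0.80 and 1.37.

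Other genes of the interferon pathway were counted from lists outside the 46. None of the 9 interferon genes listed was found among the genes of either condition, so their levels are unknown. Of 8 genes for JAK kinases and inhibitors, 0 were lower and 3 higher in control cells, and 0 were lower and 3 higher in paused cells, by the authors' DESeq2 tests. The higher share of these genes was 37.5% under either condition, against 19.5% (control) and 20.5% (paused) of all genes. Their lower share was 0%, against 21.9% and 22% of all genes. The kinase gene Jak1 (0.21 and 0.10), the phosphatase gene Ptpn6 (0.15 and 0.17) and the inhibitor gene Pias1 (0.25 and 0.15) rose in both tables. Of 12 further genes of sensor signalling, mostly kinases and adaptors but also the sensor genes Tlr3 and Dhx58 and the factor gene Irf5, 6 were lower and 1 higher in control cells, and 5 lower and 1 higher in paused cells. The lower share of this list was 50% and 41.7%, against 21.9% and 22% of all genes. Its higher share was 8.33% in each, against 19.5% and 20.5%. Tbk1, the kinase that activates Irf3, changed by -0.21 (SE 0.05) and -0.14 (SE 0.04), and Traf3 by -0.25 (SE 0.09) and -0.23 (SE 0.07). Tank, an adaptor of that kinase, changed by -0.28 (SE 0.10) and -0.49 (SE 0.08), and the toll-like receptor adaptor Myd88 by -0.26 (SE 0.09) in control cells. The higher gene was Irf5, chosen after its values were seen (0.55 and 0.60).

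Further interferon-induced genes went both ways. Of 28 tested in control cells, 7 were lower and 10 higher, with a median change of 0.11, and of 30 tested in paused cells, 8 were lower and 9 higher, with a median of 0.01. The lower share, 25% and 26.7%, was near the 21.9% and 22% of all genes, and the higher share was 35.7% and 30%, against 19.5% and 20.5%. The genes of the 2′-5′ oligoadenylate synthetases Oas1a and Oas1g, which start the decay of viral RNA, rose by 0.38 (SE 0.07) and 0.63 (SE 0.07) in control cells and by 0.68 (SE 0.09) and 0.76 (SE 0.08) in paused cells, by the authors' deposited tables. Lgals9, which codes for a galectin, rose by 0.30 (SE 0.11) and 0.78 (SE 0.15). Tor3a changed by -0.56 (SE 0.09) and -0.51 (SE 0.07). Below the minimum on abundance, and chosen after their values were seen, Oasl2 (-1.59 and -2.34), Parp10 (-0.94 and -1.12), Nmi (-0.93 and -0.61) and Trim21 (-0.40 and -0.75) fell in both tables, and Oasl2 had the largest change of the list. Also below it and chosen in the same way, Ube2l6 (0.86 and 1.57), Helz2 (0.82 and 0.74), Oas2 (0.66 and 0.62) and Sp110 (0.68 and 0.61) rose in both tables. The Oas1 genes are a family of close relatives, so their separate values are uncertain.

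Markers of cell types were read in the same tables. Over all genes, 21.9% were called lower and 19.5% higher in the control table, and 22% and 20.5% in the paused table. All 10 embryonic stem cell markers were found in both, with means from 8797 to 51710 counts in control and from 4662 to 44100 in paused cells. Of these, 2 were called lower and 3 higher in each table. Pou5f1 stood at -0.18 (adjusted p 0.0063) and -0.08 (adjusted p 0.0924), Esrrb at 0.04 (adjusted p 0.682) and -0.05 (adjusted p 0.525) and Dppa5a at -0.39 (adjusted p 0.252) and -0.16 (adjusted p 0.147). Chosen after their values were seen, the higher markers were Klf4 (0.56 and 0.26), Fgf4 (0.50 and 0.48) and Nanog (0.32 and 0.18) in both tables, and the other lower ones were Utf1 in both (-0.23 and -0.22) and Tdgf1 in paused cells (-0.21). Markers of fibroblasts, cells that express class I genes, had a summed mean of 1050 counts over 9 genes in control and 1043 over 8 genes in paused cells. Of these, 5 were lower and 1 higher in control cells, and 4 lower and 1 higher in paused cells. Col1a1 changed by -2.79 (SE 0.40, mean 381) and -3.53 (SE 0.47, mean 245), while Thy1 (-0.11 and 0.18, means 336 and 459) and Pdgfrb (0.06 and 0.16, means 196 and 218) did not pass the test. Chosen after their values were seen, the other lower markers were Col3a1 (-2.95 and -2.22), Twist2 (-2.47 and -2.07) and Col1a2 (-0.87 and -0.93) in both tables and Dcn (-1.57) in control cells, and the higher one was Col6a3 (1.54 and 1.34). The part of other cells in the falls of B2m, Psmb8 and Tap2 was not tested, and in bulk RNA fewer cells of a type and less RNA per cell cannot be told apart.

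Primitive endoderm markers were higher for 7 of 8 genes in each table and lower for none, with a summed mean of 5159 and 5844 counts. Over all genes the higher share was 19.5% in control and 20.5% in paused cells, and the lower share 21.9% and 22%. Col4a1 rose by 0.98 and 0.96, Dab2 by 0.66 and 0.62 and Pdgfra by 1.41 and 1.70. Of the mesoderm markers 3 were lower and 1 higher in each table, with T at -4.66 and -3.86, Eomes at -0.94 and -0.06, where the paused value did not pass the test, and Hand1 higher by 1.95 and 2.69. Of 10 markers of macrophages and other blood cells 5 and 6 were found, and 3 of them were higher in each table, among them Cd68 (0.63 and 0.47, means 716 and 732) and Itgam (1.08 and 1.60, means 61.5 and 59.8), while Cd3e (0.22 and 0.28) did not pass the test. Ptprc, Adgre1, Lyz2 and Tyrobp of that list were found in neither condition. The part of these cell types in the changes of the members was not tested.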

How the data were processed

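The authors sequenced poly(A) RNA and, per the submitters' processing notes, used FastQC, Trim Galore, HISAT2, featureCounts and DESeq2 with mm10; versions, parameters, use of strand and the libraries in each comparison are not given in the sources used here. Groups were taken from the sample titles. Per the file headers, the 2 deposited tables give a mean normalized count (a signal averaged by the authors), a log2 change with its standard error, a test statistic (a score), a p-value and an adjusted p-value. Adjusted p-values recomputed by the Benjamini-Hochberg method over a whole table differed by at most 0.713% and 0.852% from those deposited. Of the control genes, 2 have no p. The lowest means are 2.22 and 3.19 normalized counts, the sums of means 4.61e+07 and 4.43e+07, and the median standard errors 0.11 and 0.10 (0.12 and 0.13 for members). Where replicates were not separate cultures, p-values measure technical spread only. Even with separate cultures, the libraries come from the wild type and only 2 knockout lines. A difference between lines that is unrelated to Smad2 therefore cannot be told apart from the loss of Smad2.

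Computed here were counts of calls, 95% normal intervals, counts per kb, motif matches, overlaps of genes (GENCODE M21) and the difference between the tables, which share no library per the labels. The difference test was checked on simulated data. Python 3.11.15, numpy 2.4.6, scipy 1.17.1, pandas 2.3.3 and matplotlib 3.10.9 were used. The members and lists were chosen with earlier results of these data known. From the list of JAK kinases and inhibitors 1 gene was left out and is not reported here. Named in full are the members called in both tables, those whose change differs between conditions, and per role the 2 with the highest mean per kb and the 2 with the largest change. From each list outside the members at most 4 called genes above 5 ppm of the summed means are named, and of each marker list the 3 with the highest means. Alternatives were an adjusted p under 0.01, a 2-fold threshold, a test against 1.2-fold and a statistic scaled to its middle spread. Others were equal summed counts, a minimum on abundance (230 and 221 counts) and leaving out 8 members of gene families. These were the Ifit, Ifitm and class I heavy chain members, chosen by family and not by measured shared sequence.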

Additional observations from a re-analysis of the deposited data

How the results depend on the processing

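No paired analysis was possible because the tables hold no values of single libraries, and for the same reason leaving out each library in turn was not done. Of the 29 members called in control cells and the 24 called in paused cells, a 2-fold threshold left 7 (6 lower, 1 higher) and 9 (7 lower, 2 higher), where 1380 of 19778 and 1418 of 19979 genes in all passed. A test against 1.2-fold left 12 (11 lower, 1 higher) and 14 (11 lower, 3 higher), against 2090 and 2122 of all genes. Scaling the statistic to its middle spread left 1 (1 lower, 0 higher: Irf1) and 2 (2 lower, 0 higher: Irf1 and Psmb8), against 293 and 450 of all genes. The minimum on abundance left 18 in control cells (10 lower) and 15 in paused cells (3 higher), by construction because fewer genes enter, against 5569 of 10793 and 5834 of 11006 genes. With an adjusted p under 0.01, 6 members were higher in control cells, against 2876 of all genes. Of the 15 members lower in both conditions, 11 remained with an adjusted p under 0.01, 13 with equal summed counts, 10 in the test against 1.2-fold, 5 with the 2-fold threshold and 1, Irf1, with the scaled statistic. With the minimum on abundance 9 remained, since Psmb8, Tap2, Ifih1 and other members lie under it. Equal summed counts, which assume 4 wild-type and 8 knockout libraries, take a shift of -0.06 in control and -0.04 in paused cells off every change. Values that were not called then changed sign: Irf9 (0.03), Rfx5 (0.02) and Samhd1 (0.02) in control cells, and Eif2ak2 (0.01), Ifitm2 (0.02) and Irf3 (0.03) in paused cells. Adar, Ifnar1 and Psmb9 lost their control call and Irf9 and Samhd1 their paused call, while Ifnar2 gained one. Outside the members, the blood cell marker Cd3e gained a control call, with a change of 0.28. The share of calls over all genes that were higher went from 47.1% to 60.5% in control and from 48.2% to 57.6% in paused cells, and with the minimum on abundance to 36.8% and 38.1%. Leaving out the 8 members of gene families left 24 calls in control and 21 in paused cells. The number of members that differed between conditions was 0 under each of these alternatives. Depth per library is unknown, and low means limit Ifih1, Ifit1, Irf7 and Tmem173.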

Other observations

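The stretch of chromosome 17 from Tapbp to H2-D1, chr17:33915899-35267499 on GRCm38 (1.35 Mb), holds 7 of the members and 77 other genes in each table. Of the 77 other genes 15 were lower and 8 higher in control cells (19.5% lower), and 18 were lower and 12 higher in paused cells (23.4% lower). The members there were lower for 5 and higher for 1 in control cells, and lower for 3 and higher for 1 in paused cells. The median log2 change of the other genes was -0.05 and -0.01. The share of lower genes among the neighbours of Psmb8 and Tap2 over this stretch was thus near that of all genes, 21.9% and 22%.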
